A study of Mus musculus with 2 samples.

Results

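The lysyl oxidase family of the mouse comprises Lox, Loxl1, Loxl2, Loxl3 and Loxl4, and these 5 genes were found by symbol among the 31053 genes measured in single cells of the e15.5 eye cup. The family was chosen by the level of Loxl2, which was lower in mutant than in control cells of the retinal pigment epithelium (RPE), the sheet of pigmented cells that backs the photoreceptors. That difference is therefore described below without being used as evidence. Single-cell RNA-seq (scRNAseq) served to compare gene expression with and without the membrane-bound transcription factor MYRF, in the RPE and in the cells around it. The control was Myrf fl/fl, with loxP sites in both copies of Myrf and no Cre. The mutants were of genotype Rx>cre Myrf fl/fl, where Rx regulatory sequence drives Cre recombinase in the early eye field and so in the precursors of both neural retina and RPE. Periocular mesenchyme, blood vessels and melanocytes arise outside the eye field. A library pooled 3 eye cups with the cornea, lens and optic nerve removed, and there was 1 library per genotype. No test between genotypes could be made, and every interval below is a 95% interval for counting error that leaves out the spread between embryos.

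Lysyl oxidases are secreted, copper-dependent amine oxidases. They convert lysines of collagens and elastin into reactive aldehydes, which then form the cross-links that make collagen fibrils, elastic fibres and basement membranes stiff and insoluble. Lox and Loxl1 are made as pro-enzymes that are cleaved outside the cell, and Loxl1 is known for its part in the upkeep of elastic fibres. Loxl2, Loxl3 and Loxl4 carry scavenger receptor cysteine-rich domains ahead of the catalytic domain, and Loxl2 is known to act on collagen IV, a basement membrane collagen. The RPE rests on Bruch's membrane, a layered sheet of basement membrane, collagen and elastic fibres, and the mesenchyme around it forms the sclera, the collagenous coat of the eye.

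The copper-binding stretch of the coding sequence is shown here because it is what makes these genes a family and because it shows how far the transcripts differ. Each line gives 30 bases of the coding strand from the GENCODE M21 transcripts (GRCm38), with the codons for histidine, the residue that holds the copper ion, in capitals.
Loxl1: CATagctgtCACcaaCATtacCACagcatg
Loxl2: CACgactgcCACaggCACtacCACagcatg
Loxl3: CATgagtgtCATgggCATtacCACagtatg
Loxl4: CACcagtgcCACaggCACtacCACagcatc
All of these sequences hold 4 histidine codons at the same places. They stand at codons 479 to 488 of 607 in Loxl1, 625 to 634 of 776 in Loxl2, 605 to 614 of 754 in Loxl3 and 610 to 619 of 758 in Loxl4. Among the 4 genes shown, which leave out Lox, Loxl2 and Loxl4 were the closest pair, with 27 of the 30 bases identical. Loxl1 and Loxl4 were the most distant, with 20. Over the whole transcripts, the longest run of identical bases shared by any pair was 32, between Lox and Loxl1, so most stretches of these genes are distinct in sequence. Loxl2 (ENSMUSG00000034205) lies on the plus strand at chr14:69609068-69695834, Loxl1 (ENSMUSG00000032334) on the minus strand at chr9:58287738-58313186, Loxl3 (ENSMUSG00000000693) on the plus strand at chr6:83034173-83052562 and Loxl4 (ENSMUSG00000025185) on the minus strand at chr19:42593982-42612813. Lox is ENSMUSG00000024529. Gm27177 overlaps Loxl2 on the opposite strand over 74219 bases and Htra2 overlaps Loxl3 over 1297 bases. Whether the counting used strand is not given in the sources used here, so reads from such overlaps cannot be told apart.

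The 2 libraries were of like depth, with 132436812 and 135678970 unique molecular identifiers (UMIs, tags that mark single captured transcripts). After filtering, 11608 control and 12669 mutant cells remained, at a median of 9837 and 8968 UMIs. The libraries shared 69 barcodes, or 0.530% and 0.497% of each. The pools differed in sex, since 3 control cells (0.0258%) but 5302 mutant cells (41.9%) had a UMI of a Y-linked gene. Cells fell into 19 named classes, most of them called "-like" because the names were rebuilt from markers. RPE-like cells numbered 348 and 183, all mesenchyme subtypes together 2784 and 2006, endothelial-like cells 151 and 114 and pericyte-like cells 13 and 21. The RPE-like cells carried the RPE genes Rlbp1 (344 and 231 CPM) and Slc16a8 (178 and 106 CPM), where CPM counts UMIs of a gene per 1000000 UMIs of the class. Rpe65 was at 0 in both libraries, Rgr at 4.59 and 0 CPM and Best1 at 1.08 and 0.553 CPM. Pax3, which marks melanocytes, had 0 and 1 UMIs in RPE-like cells, against 293 and 329 CPM in melanocyte-like cells. The clusters led by Trpm1 scored higher for melanocyte-like markers (0.384, 0.371 and 0.506) than for RPE-like ones (0.336, 0.312 and 0.425), and the lists share pigment genes. They were named RPE-like because their score for Pax3, Kit, Ednrb and Sox10 lay under a limit of 0.5. Myrf itself, the deleted gene, was at 78.8 CPM in control and 30.4 CPM in mutant RPE-like cells, a ratio of 0.386 (0.284 to 0.517). The study describes Myrf expression as lost in the mutant. The UMIs come from the 3′ end of the transcript, which need not lie in the deleted part. The source of the UMIs left in the mutant was not tested.

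Lox was by far highest in mesenchyme. It reached 435 and 344 CPM, in control and mutant, in Osr2/Foxl2 mesenchyme, 262.5 and 315 CPM in tendon-like mesenchyme, 269.9 and 269.4 CPM in periocular mesenchyme without a subtype, and 260.1 and 244 CPM in keratocyte-like mesenchyme. These neighbours in the order were not separated by their intervals in both libraries. The lowest of them stood above the next class, differentiating muscle-like cells (56.8 and 76.9 CPM), in both libraries. RPE-like cells held 4.05 and 5.53 CPM, and erythroid-like cells, which are no source of matrix genes and so give a measure of free RNA, held 0.793 and 0.305 CPM.

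Loxl1 followed the same broad pattern with another order among the mesenchyme subtypes. Keratocyte-like cells, which resemble the cells of the corneal stroma and sclera, had the highest mean of the 2 libraries, at 122 and 147 CPM, but their control interval overlapped that of Osr2/Foxl2 mesenchyme, at 117 and 103 CPM. These were followed by periocular mesenchyme at 83.8 and 102 CPM and tendon-like mesenchyme at 70.8 and 72.9 CPM. RPE-like cells came next, at 22.7 and 32.6 CPM, below tendon-like cells in both libraries, and close to muscle progenitor-like cells at 22.4 and 32.0 CPM. Endothelial-like cells had 1 and 0 UMIs of Loxl1.

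Loxl2 was the most widely spread member. Tendon-like mesenchyme stood above every other class in both libraries, at 293 and 234 CPM. Pericyte-like cells (116 and 137 CPM), periocular mesenchyme (126 and 120.4 CPM), melanocyte-like cells (103 and 77.01 CPM) and Schwann cell precursor-like cells (114 and 50.3 CPM) came below it, with intervals that were not separated from their neighbours in both libraries. Control RPE-like cells, at 45.6 CPM, lay near endothelial-like cells at 38.4 CPM. Mutant RPE-like cells, at 14.4 CPM, lay near differentiating muscle-like cells at 15.4 CPM. Erythroid-like cells held 0.529 and 0.305 CPM.

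Loxl3 was low throughout. Pericyte-like cells had the highest values, 42.0 CPM (18.1 to 82.8) and 52.8 CPM (29.5 to 87.1), from 8 and 15 UMIs. Schwann cell precursor-like cells had 17.6 and 24.1 CPM, keratocyte-like cells 14.8 and 13.7 CPM and RPE-like cells 8.10 and 8.85 CPM, and no neighbours in this order were separated by their intervals in both libraries. After thinning to 2000 UMIs the RPE-like values of Loxl3 were 16.7 and 16.8 CPM, and those of Lox were 2.09 and 12.6 CPM. Loxl4 was hardly detected: the named classes held 18 UMIs over both libraries, in 8 of the 19 classes. RPE-like cells had 1 UMI of Loxl4 in 348 control cells and 0 in 183 mutant cells, and a count of 0 there allows a share of up to 1.64% of cells with a UMI, taken as 3 of 183 cells.

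**Figure D1:**
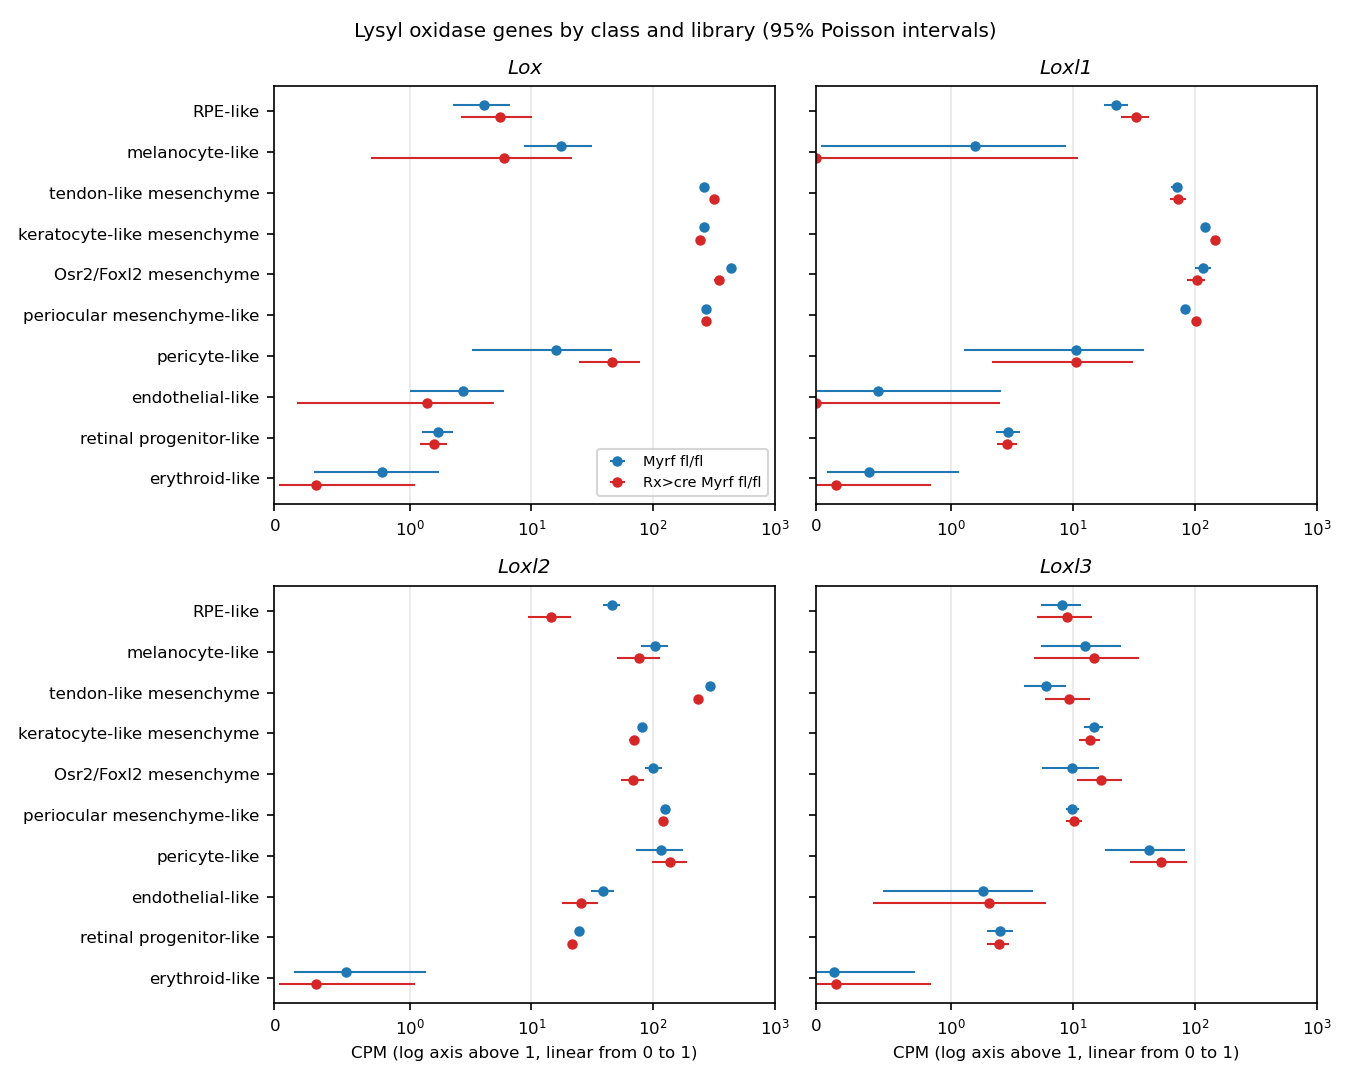
Levels of Lox, Loxl1, Loxl2 and Loxl3 by class (rows) in the control (blue) and mutant (red) library, in CPM on an axis that is linear from 0 to 1 and logarithmic above, with 95% Poisson intervals as lines. Lox and Loxl1 are highest in the 4 mesenchyme rows, Loxl2 is above 10 CPM in every row shown but the erythroid-like one, and RPE-like cells lie at 45.6 CPM (control) and 14.4 CPM (mutant) for Loxl2.

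In RPE-like cells, 169 UMIs of Loxl2 were counted in the control and 26 in the mutant. The levels were 45.6 CPM (39.0 to 53.0) and 14.4 CPM (9.40 to 21.1), a ratio of mutant over control of 0.315 (0.200 to 0.479). This is the difference by which the family was chosen. At least 1 Loxl2 UMI was seen in 23.9% (19.5 to 28.7) of RPE-like cells in the control and 11.5% (7.25 to 17.0) in the mutant, against 0.825% and 0.480% of erythroid-like cells. Median depth was 7911 and 4199 UMIs in RPE-like cells and 16701 and 16510 in erythroid-like cells. With each cell thinned to 2000 UMIs, which left 239 and 119 of these cells, Loxl2 was seen in 7.53% (4.52 to 11.6) and 2.52% (0.523 to 7.19), with overlapping intervals. The thinning left out 109 control and 64 mutant cells of lower depth.

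Lox, Loxl1 and Loxl3 were higher in the mutant RPE-like cells by their point values. Loxl1 had 84 and 59 UMIs, or 22.7 CPM (18.1 to 28.1) and 32.6 CPM (24.9 to 42.1), a ratio of 1.44 (1.01 to 2.03). A Loxl1 UMI was seen in 17.8% (13.9 to 22.2) and 20.8% (15.1 to 27.4) of the cells, and in 4.603% (2.32 to 8.09) and 4.202% (1.38 to 9.53) after thinning, with overlapping intervals. The ratio of Loxl1 was 0.913 (0.249 to 2.85) after thinning, so its direction turned, and 1.39 (0.973 to 1.97) with the automatic doublet threshold of each library. The interval also held 1 with called doublets kept, without cells over 20000 UMIs and under a limit of 5% mitochondrial UMIs. Lox had 15 and 10 UMIs with a ratio of 1.37 (0.549 to 3.25), and 5 cells held 73.3% of the control UMIs and 90.0% of the mutant ones. Without the 5 cells richest in Lox in each library its log2 ratio was -0.91, and without the cells highest in markers of another type 5 and 3 UMIs were left, at 1.43 and 1.84 CPM. Loxl3 had 30 and 16 UMIs and a ratio of 1.09 (0.557 to 2.07). A difference in Lox or Loxl3 was thus not detectable at this depth. RPE-like cells in which none of Lox, Loxl1 and Loxl2 was seen were 65.5% and 71.0% of the class, and 88.3% and 90.8% after thinning to 2000 UMIs. Among all 10916 genes with at least 20 UMIs in these cells, 2.64% were lower by 2-fold or more in the mutant and 1.43% were higher by as much. Of the family, Loxl2 was past 2-fold, and nothing is read from that because it is the value that chose the family.

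The Loxl2 values of the single RPE-like clusters are given next, and the difference between clusters was not tested. In the control, it was highest in the cluster led by Trpm1, Pcp4 and Pmel, at 73.5 CPM (57.8 to 92.1), followed by the cluster led by Trpm1, Pmel and Mlana, at 51.0 CPM (39.2 to 65.3), and low in the cluster led by Ttr, Col8a1 and Pmel, at 21.8 CPM (13.98 to 32.5). In the mutant the same clusters stood at 15.2, 9.71 and 16.8 CPM. The UMIs were 75 and 7 in the first, a ratio of 0.206 (0.0802 to 0.446), and 63 and 5 in the second, a ratio of 0.190 (0.0597 to 0.468). In the Ttr and Col8a1 cluster they were 24 and 11, a ratio of 0.770 (0.341 to 1.63), and this interval overlapped those of the other 2. Loxl1 was highest of these in the Ttr and Col8a1 cluster, at 38.2 and 56.5 CPM, against 18.6 and 13.0 CPM in the Trpm1, Pcp4 and Pmel cluster and 13.8 and 23.3 CPM in the Trpm1, Pmel and Mlana cluster. The shares of cells in each cluster were alike in both libraries, between 15.8% and 26.2%. The shares of UMIs, which set the CPM of the class, differed more. They were 29.7% in the control and 36.2% in the mutant for the Ttr and Col8a1 cluster. For the Trpm1, Pmel and Mlana cluster they were 33.3% and 28.5%, and for the Trpm1, Pcp4 and Pmel cluster 27.5% and 25.6%. With the clusters weighted as in the control, the log2 ratio of Loxl2 was -1.75, against -1.66 without weighting. The remaining 2 clusters had a low depth, with medians of 1810 and 998 UMIs, and held 3 and 0 and 4 and 3 Loxl2 UMIs.

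**Figure D2:**
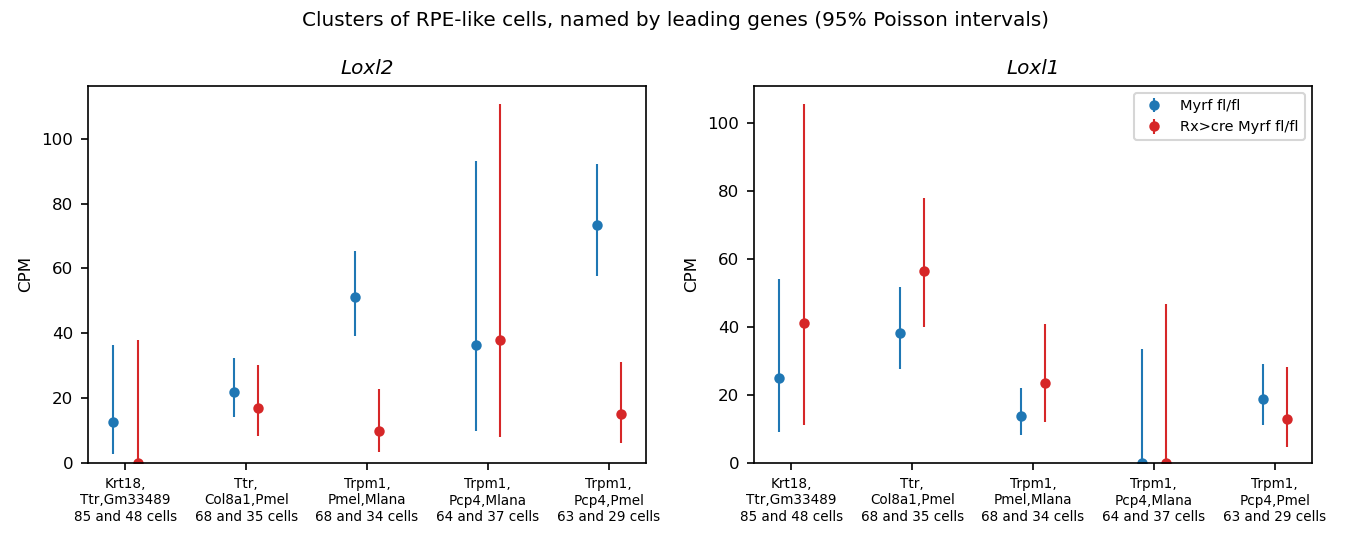
Loxl2 (left) and Loxl1 (right) in CPM with 95% Poisson intervals in the 5 RPE-like clusters, named by their leading genes with the numbers of control and mutant cells beneath, for control (blue) and mutant (red). Loxl2 in the control runs from 12.4 CPM in the low-depth Krt18 cluster to 73.5 CPM in the Trpm1, Pcp4 and Pmel cluster, where the mutant stands at 15.2 CPM. The intervals of the 2 clusters of low depth are wide.

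Other values that moved with the genotype in RPE-like cells were measured. The summed mesenchyme marker list was at 450 and 521 CPM, with 6 of its 10 genes higher, but at 265 and 212 CPM without its fibrillar collagens, the neural retina list at 758 and 925 CPM, with 6 of 12 higher, and the vascular list at 21.05 and 34.9 CPM, with 6 of 10 higher. The median mitochondrial share was 5.81% and 5.25%. Under a limit of 5% mitochondrial UMIs, Loxl2 was at 30.4 and 16.4 CPM from 28 and 9 UMIs in 136 and 84 cells, a ratio of 0.538 (0.223 to 1.17). In Xist-positive cells free of Y-linked UMIs, which numbered 183 and 38, Loxl2 had 157 and 5 UMIs, a ratio of 0.135 (0.0433 to 0.322), while Loxl1 had a ratio of 0.871 (0.475 to 1.50). The part of depth, sex and other cell types in the Loxl1 difference was not tested.

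**Figure D3:**
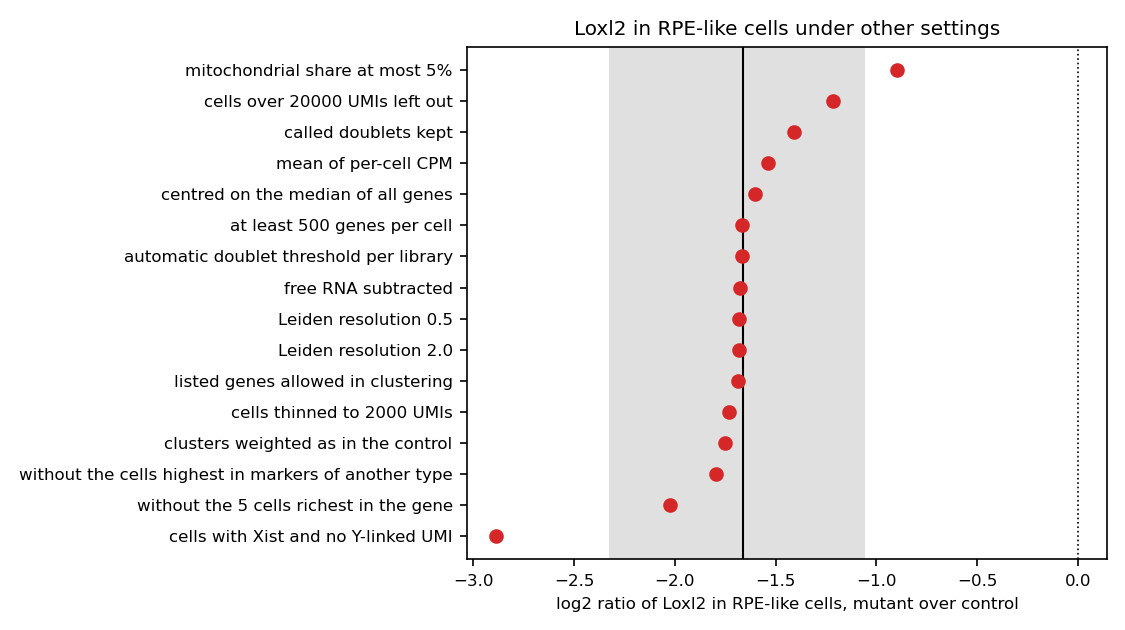
The log2 ratio of Loxl2 in RPE-like cells, mutant over control, under each alternative setting (red points), beside the value of -1.66 as reported (black line) and its 95% counting interval (grey band). The points run from -2.89 in Xist-positive cells free of Y-linked UMIs to -0.90 with the mitochondrial share limited to 5%. They are shown without intervals of their own, and under that limit and after thinning the interval included equal levels. This value chose the family and the settings re-cut the same counts, so nothing is read from the shared direction.

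In mesenchyme, where Lox and Loxl1 are most abundant, none of the 4 members with at least 20 UMIs was past 2-fold. Among all 14857 genes with at least 20 UMIs in all mesenchyme, 0.848% were lower and 2.52% higher in the mutant by 2-fold or more. Lox was at 273 CPM (268 to 278) in control and 269.7 CPM (264 to 276) in mutant mesenchyme, a ratio of 0.988 (0.960 to 1.02). Loxl1 was at 91.7 and 112 CPM, a ratio of 1.22 (1.16 to 1.28). Loxl2 was at 134 and 114 CPM, a ratio of 0.851 (0.815 to 0.888). Loxl3 was at 10.5 and 11.4 CPM, a ratio of 1.08 (0.935 to 1.25), and Loxl4 had 4 and 9 UMIs. A Lox UMI was seen in 87.5% and 84.1% of mesenchyme cells, a Loxl1 UMI in 63.0% and 68.5% and a Loxl2 UMI in 71.3% and 66.3%, at median depths of 13596 and 14107.5 UMIs. All of Lox, Loxl1 and Loxl2 were seen together in 43.7% and 43.8% of mesenchyme cells, and none of them in 3.59% and 4.19%. After thinning to 2000 UMIs these shares were 2.35% and 2.33% with all of them and 39.8% and 41.02% with none.

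The higher Loxl1 of mutant mesenchyme was spread over clusters. Loxl1 had a ratio above 1 in 13 of 14 mesenchyme clusters, with a counting interval above 1 in 10 of them. The clusters are all cut from the same 2 libraries and are not independent. Of the 6819 genes measured in all 14 clusters, 3.61% were above 1 in at least 13 and 2.21% had an interval above 1 in at least 10. The ratios ran from 0.666 (0.440 to 1.03) in the Osr2/Foxl2 cluster led by Alx1, Cdh6 and Vcan to 1.90 (1.40 to 2.54) in the Osr2/Foxl2 cluster led by Foxl2, Gata3 and Alcam. By subtype, Loxl1 was at 122 and 147 CPM in keratocyte-like cells, a ratio of 1.20 (1.11 to 1.31), and at 83.8 and 102 CPM in periocular mesenchyme, a ratio of 1.22 (1.15 to 1.30). In tendon-like mesenchyme it was at 70.8 and 72.9 CPM, a ratio of 1.03 (0.852 to 1.24), and in Osr2/Foxl2 mesenchyme at 117 and 103 CPM, a ratio of 0.887 (0.706 to 1.11). The direction in that subtype turned with the weighting, from a log2 ratio of -0.17 to 0.72 with its clusters weighted as in the control, and the lowest value was -0.66, in Xist-positive cells free of Y-linked UMIs. In Xist-positive cells free of Y-linked UMIs, 2734 and 760 of the mesenchyme cells, the ratio was 1.21 (1.14 to 1.29).

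The lower Loxl2 of mutant mesenchyme was uneven. It was below 1 in 9 and above 1 in 5 of the 14 clusters, and the interval lay below 1 in a single cluster, the tendon-like one. Of the 6819 genes, 37.0% were below 1 in at least 9 clusters and 46.7% had an interval below 1 in at least 1, so neither count is unusual. Tendon-like mesenchyme, led by Scx, the transcription factor of tendon precursors, had 1319 and 580 UMIs of Loxl2, or 293 CPM (277 to 309) and 234 CPM (215 to 253), a ratio of 0.797 (0.722 to 0.8798). The log2 ratio of -0.33 ran from -0.80 after thinning to -0.10 at resolution 2.0. A Loxl2 UMI was seen in 91.1% and 87.5% of these cells, and in 44.6% (39.0 to 50.3) and 29.8% (23.0 to 37.3) after thinning. The tendon-like cluster held 11.2% of the mesenchyme cells in the control and 8.37% in the mutant. With the clusters weighted as in the control, the log2 ratio of Loxl2 over all mesenchyme was -0.11, against -0.23 without weighting. In Xist-positive cells free of Y-linked UMIs it was -0.45. By subtype, Loxl2 was at 81.2 and 69.4 CPM in keratocyte-like cells, a ratio of 0.855 (0.764 to 0.956), at 100.1 and 68.0 CPM in Osr2/Foxl2 mesenchyme, a ratio of 0.679 (0.518 to 0.885), and at 126 and 120.4 CPM in periocular mesenchyme, a ratio of 0.957 (0.907 to 1.01). Within keratocyte-like mesenchyme the 3 clusters had ratios of 1.08, 0.876 and 1.34, each with an interval that held 1. The 2 clusters of Osr2/Foxl2 mesenchyme, which hold different shares of it in the 2 libraries, had ratios of 0.888 (0.576 to 1.33) and 0.923 (0.564 to 1.56), and weighted as in the control the log2 ratio of Loxl2 in this subtype was -0.16, against -0.56 without weighting. With called doublets kept it was -0.10, but clustering then put 745 and 561 cells in this subtype, against 167 and 154. A mesenchymal cluster that could not be named, led by Dlk1, Igfbp3 and Epyc, came close to tendon-like cells, at 267 and 253 CPM, a ratio of 0.947 (0.773 to 1.16).

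Lox was close to level over all mesenchyme but not in every subtype or cluster. Its interval lay above 1 in 6 of the 14 clusters and below 1 in 1, where 4.22% of the 6819 genes measured in all clusters had an interval above 1 in at least 6. With the clusters weighted as in the control its log2 ratio over all mesenchyme was 0.17, against -0.02 without weighting. In tendon-like mesenchyme it was at 262.5 CPM (248 to 278) and 315 CPM (294 to 338), a ratio of 1.20 (1.10 to 1.32), opposite in direction to Loxl2 in the same cells. In Osr2/Foxl2 mesenchyme Lox was at 435 and 344 CPM, a ratio of 0.792 (0.702 to 0.893), but different clusters held most of that subtype in the 2 libraries. The Foxl2, Gata3 and Alcam cluster had 132 control and 39 mutant cells and a Lox ratio of 1.84 (1.58 to 2.14). The Alx1, Cdh6 and Vcan cluster had 35 and 115 cells and a ratio of 0.588 (0.467 to 0.743). Weighted as in the control, the log2 ratio of Lox in this subtype was 0.69, against -0.34 without weighting. The direction for the subtype as a whole thus turns with the weighting. In keratocyte-like mesenchyme Lox was at 260.1 and 244 CPM, a ratio of 0.938 (0.883 to 0.997), while its 3 clusters had ratios of 1.14, 1.00 and 0.995. The periocular cluster led by S100a6, Mfap5 and Osr2 was the richest in Lox outside the Osr2/Foxl2 subtype, at 509.9 and 574 CPM, a ratio of 1.13 (1.06 to 1.20), and also held much Loxl1, at 160.2 and 197 CPM. Loxl3 in the mesenchyme subtypes had ratios from 0.925 (0.711 to 1.20) in keratocyte-like cells to 1.72 (0.860 to 3.54) in Osr2/Foxl2 mesenchyme, and all of these intervals held 1. Over the alternatives its log2 ratio ran from -0.30 to 0.47 in keratocyte-like cells and from -0.35 to 1.88 in Osr2/Foxl2 mesenchyme.

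The neural retina marker list was higher in mutant than in control mesenchyme, at 309 CPM (control) and 572 CPM (mutant), with 12 of 12 genes higher, and in erythroid-like cells it was at 46.4 and 65.9 CPM. The part of such RNA in the mesenchyme values was not tested. With free RNA subtracted or cells highest in markers of another type left out, the log2 ratios of Lox, Loxl1 and Loxl2 over all mesenchyme stayed within the counting intervals of the values above. These settings do not measure that part. The level of the list in erythroid-like cells lay far below its level in mesenchyme.

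**Figure D4:**
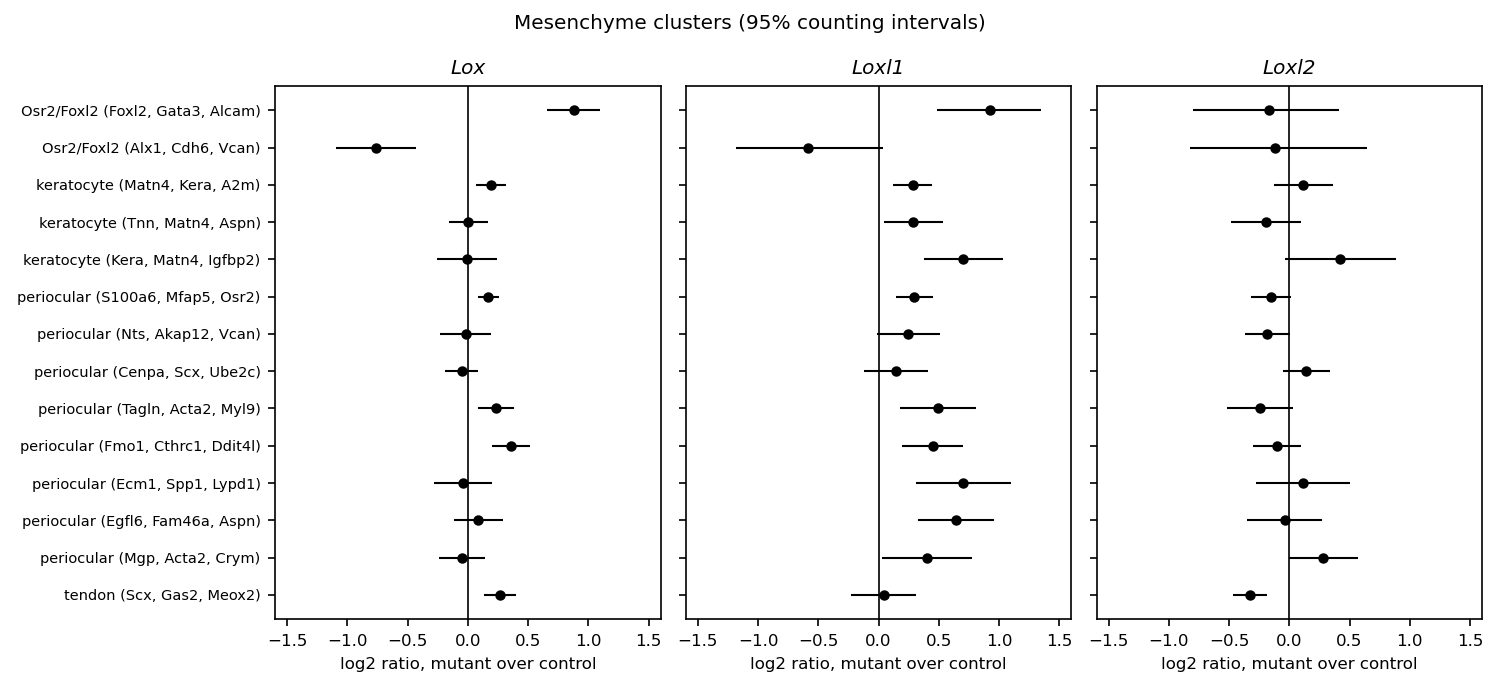
The log2 ratio, mutant over control, of Lox, Loxl1 and Loxl2 in the 14 mesenchyme clusters, named by subtype and leading genes, with 95% counting intervals as lines. Loxl1 lies to the right of 0 in 13 of 14 clusters, Loxl2 lies on both sides, and Lox runs from a ratio of 0.588 to 1.84 in the 2 Osr2/Foxl2 clusters at the top.

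In vascular cells, Loxl2 was the member with a measurable level in the endothelium. Endothelial-like cells had 84 and 37 UMIs of Loxl2, or 38.4 CPM (30.6 to 47.5) and 25.5 CPM (17.9 to 35.1), a ratio of 0.663 (0.438 to 0.987). A Loxl2 UMI was seen in 34.4% and 23.7% of these cells, and in 10.0% and 8.60% after thinning to 2000 UMIs, with overlapping intervals. The log2 ratio was -0.59, against -0.05 after thinning and -1.52 in Xist-positive cells free of Y-linked UMIs. The mesenchyme marker list was at 252 and 166 CPM in endothelial-like cells, with 8 of 10 genes lower, the neural retina list at 295 and 488 CPM, with 7 of 12 genes higher, and the median mitochondrial share was 5.50% and 6.37%. Their part in the difference was not tested. Lox had 6 and 2 UMIs and Loxl3 4 and 3 UMIs. In pericyte-like cells, the mural cells of small vessels, Loxl2 was at 116 CPM (72.4 to 175) and 137 CPM (97.6 to 188), a ratio of 1.19 (0.687 to 2.10), and Loxl3 had a ratio of 1.26 (0.4999 to 3.42). With 13 and 21 cells, no difference in pericyte-like cells was detectable. The class itself depends on the settings, with 170 and 141 cells under the 5% mitochondrial limit and 1016 and 743 at resolution 0.5, and the log2 ratio of Loxl2 in it ran from -0.82 to 1.604. Its neural retina list was at 57.8 and 546 CPM, with 10 of 12 genes higher.

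**Figure D5:**
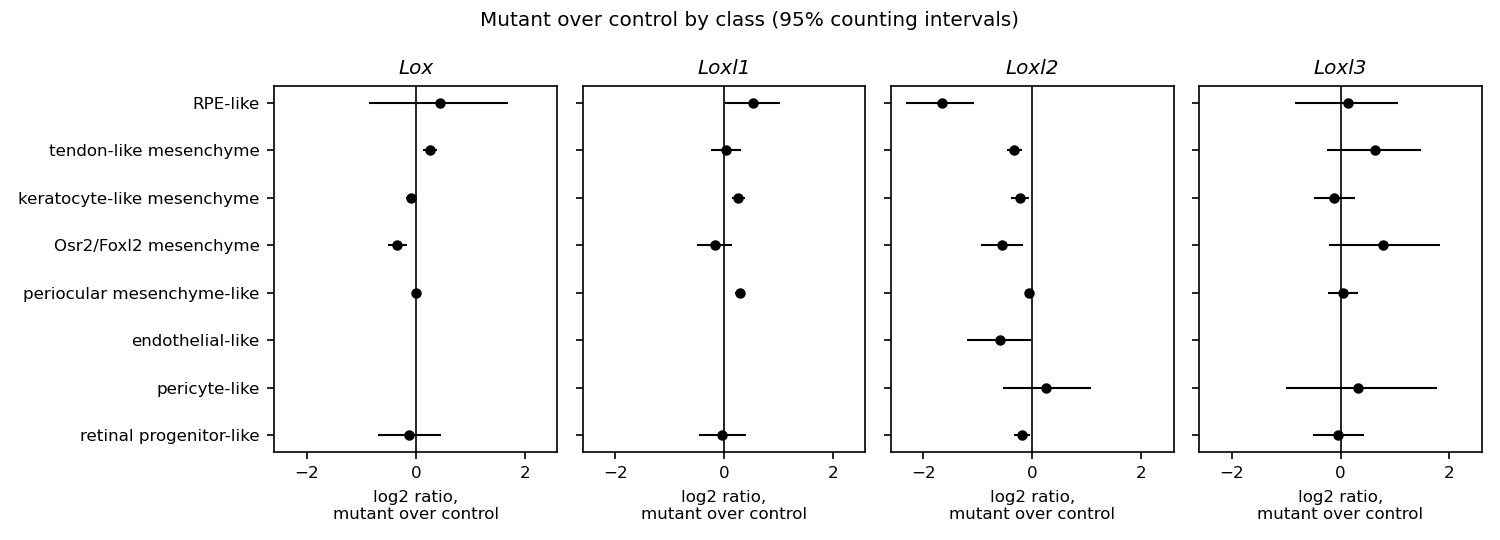
The log2 ratio, mutant over control, of Lox, Loxl1, Loxl2 and Loxl3 by class, with 95% counting intervals as lines. Rows without a point had too few UMIs. The RPE-like value of Loxl2 is the one that chose the family. Loxl1 lies right of 0 in the RPE-like, keratocyte-like and periocular rows with intervals that do not reach 0 as plotted, though the RPE-like one does under several other settings.

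Leaving out RPE-like cells, whose Loxl2 level chose the family, Loxl2 had a ratio below 1 in 14 of the 16 classes with at least 20 UMIs, and an interval below 1 in 9 of them. The 9 include keratocyte-like, Osr2/Foxl2 and endothelial-like cells, whose values depended on clusters or thinning as given above. All classes come from the same 2 libraries and are not independent. Of the 3167 genes measured in all of these 16 classes, 10.8% were below 1 in at least 14 and 4.29% had an interval below 1 in at least 9. Schwann cell precursor-like cells, the glial precursors of nerve, had 52 and 23 UMIs, a ratio of 0.440 (0.257 to 0.732). Among cells of the neural retina, the ratio was 0.877 (0.791 to 0.972) in retinal progenitor-like cells, 0.556 (0.427 to 0.723) in neurogenic progenitor-like cells, 0.568 (0.346 to 0.925) in photoreceptor precursor-like cells, 0.561 (0.256 to 1.21) in amacrine or horizontal cell-like cells and 0.531 (0.345 to 0.809) in retinal ganglion cell-like cells. Melanocyte-like cells, which share pigment genes with the RPE but lie outside the Rx lineage, had 65 and 26 UMIs of Loxl2 and a ratio of 0.749 (0.456 to 1.20). Muscle progenitor-like cells had the ratio 1.13 (0.942 to 1.36). The difference between classes was not tested. Again without RPE-like cells, Loxl1 was above 1 in 8 of 11 classes, with the interval above 1 in 3, where 14.2% of 6430 genes measured in all of these classes were above 1 in at least 8 and 9.63% had such an interval in at least 3. Outside mesenchyme, muscle progenitor-like cells had such an interval, with 83 and 88 UMIs and a ratio of 1.43 (1.05 to 1.95). Lox was below 1 in 8 of 11 classes, where 36.2% of 6281 genes measured in all of them were below 1 in at least 8. Its interval lay below 1 in 4, which were macrophage-like, photoreceptor precursor-like, keratocyte-like and Osr2/Foxl2 cells, and 11.4% of those genes had as many. It lay above 1 in 1, tendon-like mesenchyme. The direction of Lox in keratocyte-like and Osr2/Foxl2 cells turned with clusters weighted as in the control. The macrophage-like value rested on 21 and 4 UMIs.

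Genes that work with lysyl oxidases were examined from lists for each step, and each list was read against the median log2 ratio of all genes, which was -0.06 in RPE-like cells and -0.01 in mesenchyme. The fibrillar collagens, which are the main substrates, had a median of 0.62 in RPE-like cells, and 7 of 8 measured genes were above 0. Col1a1 was at 55.0 and 97.4 CPM there, Col3a1 at 52.1 and 84.7 CPM, Col1a2 at 78.0 and 127 CPM and Col11a1 at 108 and 113 CPM. The counting interval of the Col11a1 ratio included equal levels. Col1a1, Col1a2 and Col3a1 are also in the mesenchyme marker list, and Col1a1 was at 4361 and 6405 CPM in mesenchyme. The part of mesenchyme RNA in the values of RPE-like cells was not tested. In mesenchyme the fibrillar collagens had a median of 0.49 with 11 of 11 genes above 0, and Col5a3, a collagen V chain, was the gene past 2-fold, at 1.75 and 3.65 CPM, where 2.52% of all genes were as much higher. Col1a2 was at 4639 and 6755 CPM and Col5a1 at 646 and 953 CPM.

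Basement membrane genes, which include the collagen IV chains on which Loxl2 acts, had a median of -0.01 in RPE-like cells, with 11 of 20 genes below 0. Nid1, a linker of laminin and collagen IV networks, had 47 and 8 UMIs, a ratio of 0.349 (0.142 to 0.746). Lama1, a laminin chain of embryonic basement membranes, had 73 and 16 UMIs, a ratio of 0.449 (0.244 to 0.780). These were the 2 genes past 2-fold of the 20 measured, where 2.64% of all genes were as much lower. Col4a3, a collagen IV chain, was higher, at 66.6 and 97.4 CPM. Hspg2, the perlecan core protein, was at 12.1 and 17.7 CPM, a ratio of 1.46 (0.897 to 2.35). Of the most abundant members, Sparc (1495 and 1602 CPM) had a ratio of 1.07 (1.02 to 1.12). Col8a1 (865 and 997 CPM) had a ratio of 1.15 (1.09 to 1.22). In mesenchyme 21 of 21 measured genes of this list were above 0, with a median of 0.25, and Nid1 was at 232 and 281 CPM, Sparc at 2452 and 2804 CPM, Col4a6 at 3.77 and 5.23 CPM and Col15a1 at 0.730 and 1.19 CPM. The counting interval of the Col15a1 ratio included equal levels.

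The elastic fibre genes had a median of 0.08 in RPE-like cells and 0.13 in mesenchyme. In RPE-like cells Fbn1, the main microfibril protein, was at 85.8 and 127 CPM, Fbln5, which brings Loxl1 to elastin, at 32.4 and 46.5 CPM, Fbn2 at 164 and 144 CPM, Mfap2 at 143 and 160.5 CPM and Ltbp1 at 25.1 and 16.6 CPM. The counting intervals of the Fbn2, Mfap2 and Ltbp1 ratios included equal levels. Fbln2, named after its values were seen, was the gene of this list past 2-fold there, with 36 and 7 UMIs and a ratio of 0.399 (0.150 to 0.908), against the same 2.64% of all genes. In mesenchyme Ltbp2 was at 6.89 and 10.5 CPM, Mfap5 at 73.3 and 101 CPM, Efemp1 at 73.5 and 62.2 CPM, Emilin2 at 20.3 and 18.4 CPM, and the abundant Mfap2 at 1137 and 1299 CPM and Fbn2 at 922 and 863 CPM. The counting interval of the Emilin2 ratio included equal levels. Genes for pro-enzyme processing and copper supply had a median of 0.22 in RPE-like cells and 0.02 in mesenchyme. In RPE-like cells Pcolce, an enhancer of procollagen cleavage, was at 99.6 and 168 CPM, Postn, a scaffold protein for Bmp1, at 17.3 and 29.3 CPM, Atox1, a copper chaperone, at 334 and 468 CPM, Fn1 at 27.3 and 17.2 CPM and Atp7b, a copper pump, at 20.8 and 15.49 CPM. The counting interval of the Atp7b ratio included equal levels. In mesenchyme Postn was at 442 and 565 CPM, Fn1 at 851 and 810.1 CPM, Pcolce2 at 0.730 and 0.955 CPM, Tll1, a relative of Bmp1, at 2.604 and 2.14 CPM and Atp7a, the copper pump that loads lysyl oxidases, at 22.9 and 20.5 CPM. The counting intervals of the Pcolce2 and Tll1 ratios included equal levels.

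The genes that modify collagen inside the cell had a median of 0.04 in RPE-like cells, from -0.35 for P3h4 to 0.34 for Crtap. Plod1, a lysyl hydroxylase, was at 22.9 and 19.4 CPM there, Plod3 at 15.9 and 19.9 CPM, Ppib at 799 and 831 CPM and Serpinh1, the collagen chaperone, at 556 and 573 CPM. The counting intervals of all these named genes included equal levels in RPE-like cells. The median of the list was 0.21 in mesenchyme, where 14 of 16 genes were above 0. Colgalt2, which adds galactose to hydroxylysine, was past 2-fold there, at 3.26 and 7.44 CPM, against the same 2.52% of all genes. Plod1 was at 63.6 and 83.3 CPM, P4ha1 at 114 and 114 CPM, P3h2 at 4.72 and 4.25 CPM, Ppib at 1305 and 1388 CPM and Serpinh1 at 1351 and 1526 CPM. Hypoxia response genes, examined because Lox and Loxl2 are known targets of that response, had a median of -0.14 in RPE-like cells and 0.08 in mesenchyme. In RPE-like cells Vegfa was at 121 and 140.0 CPM, Egln1 at 75.6 and 80.2 CPM, Arnt at 19.4 and 13.8 CPM, Ankrd37 at 10.8 and 8.85 CPM, Slc2a1 at 598 and 629 CPM and Aldoa at 1414 and 1420 CPM. The counting intervals of all these hypoxia genes included equal levels there. In mesenchyme Epas1 was higher, at 3.02 and 5.37 CPM, as was Slc2a1, at 20.2 and 31.0 CPM. Egln1 had a ratio of 0.902 (0.857 to 0.949) and Pgk1 one of 0.917 (0.886 to 0.949), and the abundant Ldha was at 312 and 313 CPM and Aldoa at 301 and 283 CPM. Transcription factors and cadherins of the epithelial-mesenchymal transition had medians of -0.07 in RPE-like cells and -0.09 in mesenchyme. In RPE-like cells Tcf3 was at 58.3 and 41.5 CPM, a ratio of 0.712 (0.540 to 0.930), Zeb1 at 23.7 and 16.05 CPM, Twist1 at 8.63 and 12.2 CPM, Cdh2 at 67.7 and 79.7 CPM and Cdh3 at 115 and 105 CPM. The counting intervals of the Zeb1, Twist1, Cdh2 and Cdh3 ratios included equal levels. In mesenchyme Twist1 had a ratio of 0.864 (0.846 to 0.882) and Tcf3 one of 0.870 (0.835 to 0.906), while Snai1 was at 19.2 and 25.2 CPM, Cdh2 at 46.3 and 58.7 CPM and Twist2 at 179 and 186 CPM. In endothelial-like cells the list medians lay between -0.19 and 0.23, with 14 of 15 basement membrane genes above 0, beside a median of -0.03 over all genes.

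The genes whose levels were most alike to each member were found over 38 points, the 19 classes in each library, among 12443 genes. Points of a library share its depth and preparation, so the correlations are descriptions. Lox was most like Twist1 (Pearson r of 0.96), Col1a1, Igsf10, Ctsk and Pdgfra, and Loxl1 was most like Islr (0.92), Igdcc4, Prrx2, Dcn and Agtr2. Loxl2 was most like Pkd2 (0.92), and Phldb2, Wwtr1 and Serpinh1 were also among its closest genes. Loxl3 was most like Kif7 (0.85), P3h1, Efemp2, Plod1 and Tram2. Loxl4, with 18 UMIs in all, was too sparse for its closest genes to be read. Within the family the closest pair was Lox and Loxl1 (0.86), followed by Loxl2 and Loxl3 (0.73) and Lox and Loxl2 (0.71).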

How the data were processed

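The authors deposited UMI counts that were not normalized, as 1 matrix for each of 2 libraries of 10x Genomics 3′ scRNAseq. The submitters' processing notes name Cell Ranger 7.1.0, Seurat 4.1.1 and mm10, whereas version 3.1.0 stands in the headers of the matrices. The deposited counts had not been filtered as the study describes, so its limits of 200 genes and 15% mitochondrial UMIs were applied. The study's limit of 2000 UMIs against doublets would leave 109 control and 64 mutant RPE-like cells and was tried only as an alternative.

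Doublets were scored per library with Scrublet in scanpy 1.11.5. The automatic threshold called 334 control and 0 mutant barcodes, because the mutant's threshold (0.658) lay above its highest score (0.526). The control's threshold (0.215) was therefore used for both, a choice made after seeing the data, which removed 334 and 349 barcodes (2.80% and 2.68%). Clustering took the cells of both libraries at once, with no batch correction. It used 1808 of the 2000 genes of highest variability, with the family, the listed genes, the naming markers, Xist and Y-linked genes left out, using 30 principal components, 15 neighbours and leidenalg 0.10.2 at resolution 1.0. The 666 pigmented cells and the 5489 mesenchyme and vascular cells were then clustered again, which gave 45 clusters in all. Of these, 38 were named from markers, and 7, with 17.2% and 16.9% of cells, were not. The second clustering and the score limits for names were set after seeing the data, and these names can differ from the study's.

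For each class and library, the UMIs of all cells were added up and given as CPM, with exact Poisson intervals from scipy 1.17.1, exact conditional binomial intervals for ratios and exact Clopper-Pearson intervals for shares, each at 95%. Intervals assume independent UMIs and cover counting error only. Counts of UMIs at the 3′ end were compared across classes, not between genes. A ratio was formed where a library had more than 3 UMIs, and a list median used genes with at least 20 UMIs. Genes named from lists had at least 50 UMIs, being the 2 largest falls, the 2 largest rises and the 2 most abundant of each list in RPE-like cells and in all mesenchyme. Genes alike to a member had at least 500 UMIs, and 1 of them is not reported here. The family, the lists and the alternatives were chosen with earlier results of these data known. Intervals were tested on simulated counts. The alternatives covered filters, doublets, resolution, thinning, free RNA, sex and cell composition. Coordinates and transcripts are those of GENCODE M21. Promoter and protein sequences were not used here.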

Additional observations from a re-analysis of the deposited data

Results flagged for a closer look

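Lox in macrophage-like cells differed between the libraries in the direction opposite to tendon-like mesenchyme, with a log2 ratio of -2.72 against 0.26. The macrophage value rested on 21 control and 4 mutant UMIs, and 5 cells held 85.7% of the control UMIs. The difference between the classes was not tested.

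Y-linked genes, which were used only to select cells for an alternative, had a UMI in 41.9% of mutant cells against 0.0258% of control cells, and Xist had a UMI in 27.6% against 71.7%. The pools of the 2 genotypes differ in sex, and sex and genotype cannot be told apart outside the Xist-positive cells free of Y-linked UMIs.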

How the results depend on the processing

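There was 1 library per genotype, so no library could be left out. No paired analysis was possible because the groups share a single replicate number and no test was made. Loxl2 in RPE-like cells, the value that chose the family, had log2 ratios from -2.89 (Xist-positive cells free of Y-linked UMIs) to -0.90 (5% mitochondrial limit). The alternatives re-cut the same counts, so nothing is read from their shared direction. Its ratio was 0.538 (0.223 to 1.17) under that limit and 0.301 (0.0573 to 1.02) after thinning, and both intervals held 1. With all cells over 2000 UMIs left out, Loxl2 had 3 and 0 UMIs and no ratio. In RPE-like cells, the log2 ratio of Loxl1 turned to -0.13 after thinning to 2000 UMIs and to -0.20 in Xist-positive cells free of Y-linked UMIs, that of Lox to -0.91 without its 5 richest cells, and that of Loxl3 to -1.84 under the 5% mitochondrial limit. Lox also turned to -0.07 under that limit and -0.24 with called doublets kept, and Loxl3 to -0.76 as the mean of per-cell CPM and -0.29 without its 5 richest cells. In all mesenchyme, Lox moved to 0.026 under the 5% mitochondrial limit, 0.67 without cells over 2000 UMIs, 0.066 after thinning and 0.17 with clusters weighted as in the control, a setting added after seeing the data. Loxl1 moved to 1.26 without cells over 2000 UMIs and to 0.36 with that weighting. Loxl2 moved to -0.36 at resolution 0.5, -0.33 without cells over 2000 UMIs, -0.33 after thinning, -0.45 in Xist-positive cells free of Y-linked UMIs and -0.11 with that weighting, and Loxl3 moved to 0.51 after thinning. The cell limit of 2000 UMIs left 21 and 29 mesenchyme cells. Among subtypes, Lox in keratocyte-like mesenchyme turned to 0.15 at resolution 0.5, 0.0074 without cells over 20000 UMIs, 0.23 after thinning and 0.079 with that weighting, and Loxl2 there turned to 0.15 at resolution 0.5. Lox in Osr2/Foxl2 mesenchyme turned to 0.077 with listed genes allowed in clustering, 0.48 without cells over 2000 UMIs and 0.69 with that weighting. Over the alternatives Loxl1 in tendon-like mesenchyme ran from -0.041 to 0.40, and Loxl2 in periocular mesenchyme from -0.32 to 0.015. Of the list medians in mesenchyme, elastic fibre genes turned to -0.063 without cells over 2000 UMIs and to -0.081 in Xist-positive cells free of Y-linked UMIs, and without cells over 2000 UMIs basement membrane genes turned to -0.54 and collagen modification genes to -0.069. The processing and copper supply median there turned to -0.039 in Xist-positive cells free of Y-linked UMIs. In RPE-like cells, the list median for processing and copper supply turned to -0.24 in Xist-positive cells free of Y-linked UMIs, that of hypoxia genes to 0.033 without cells over 20000 UMIs and 0.14 without cells over 2000 UMIs, that of the epithelial-mesenchymal genes to 0.11 at a minimum of 5 UMIs, that of elastic fibre genes to -0.020 under the 5% mitochondrial limit and that of basement membrane genes to 0.035 at a minimum of 50 UMIs. Thinning moved the levels of Lox, Loxl1 and Loxl3 in RPE-like cells and, for Lox, Loxl1, Loxl2 and Loxl3, in mesenchyme in at least 1 library. The cause was not tested for any of these. Depth limits Lox, Loxl3 and Loxl4 in RPE-like cells and all members in pericyte-like cells.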
